A study of Mus musculus with 45 samples.

Results

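Heterozygous loss of a large-subunit ribosomal protein gene, Rpl5, was set against heterozygous loss of a small-subunit one, Rps19, in Kit+ cells of the fetal mouse liver. The change with VavCre Rpl5flox/+ relative to Rpl5flox/+ and the change with VavCre Rps19flox/+ relative to Rps19flox/+ were compared gene by gene in cytoplasmic poly(A) RNA. All 12 Kit+ cytoplasm libraries of the series, which holds 45 libraries in all, entered the comparison, with 3 libraries for each of the 4 genotypes. All 10908 genes with enough signal were tested, out of 13449 in the deposited table.

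The VavCre Rpl5flox/+ and VavCre Rps19flox/+ fetuses carried the Cre transgene and 1 floxed allele of the named gene. Their Rpl5flox/+ and Rps19flox/+ counterparts came from the same kind of cross and carried the floxed allele without Cre. The Vav promoter drives Cre in blood cells, and deletion in the cells around them was not measured. No group with Cre and no floxed allele was among the libraries used, so an effect of Cre itself cannot be told apart from the effect of the deletion, although both lines carry it. Livers were taken at E15.5, their homogenates were treated with emetine, a translation inhibitor, at 25 µg/mL for 15 min, and Kit+ cells were collected on magnetic beads. Cells of fetuses with the same genotype were pooled before lysis, so a library is a pool and not 1 animal. The p-values measure the spread between these pools only. Each value is for bulk RNA, in which fewer cells of a type and less RNA per cell cannot be told apart.

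Rpl5 and Rps19 are both among the genes whose heterozygous loss causes Diamond-Blackfan anemia, in which red cell precursors fail. Rpl5 is part of the 5S ribonucleoprotein particle that binds Mdm2 when ribosome assembly is disturbed, and that binding frees p53 to act. Rps19 is needed to mature the small subunit. Kit is the receptor for stem cell factor, and in the fetal liver it marks stem cells, myeloid progenitors and early erythroid progenitors, the last of which make up a large share of Kit+ cells.

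The libraries held between 22935819 and 70111711 reads on the genes of the table. Kit had between 1382 and 1971 normalized counts, that is reads divided by the size factor of the library, in all 12 libraries, and its difference between the lines was not called. On the first principal component, with 57.5% of the variance, the VavCre Rpl5flox/+ libraries lay between 25.85 and 49.74 and the VavCre Rps19flox/+ libraries between -62.92 and -41.95. The floxed libraries lay between, at 5.11 to 17.32 for Rpl5flox/+ and 0.63 to 9.82 for Rps19flox/+. The second component, with 24.6%, separated all VavCre libraries (11.44 to 34.97) from all floxed ones (-25.07 to -18.16). The larger axis thus ran in opposite directions for the lines, and the smaller axis ran the same way.

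**Figure D1:**
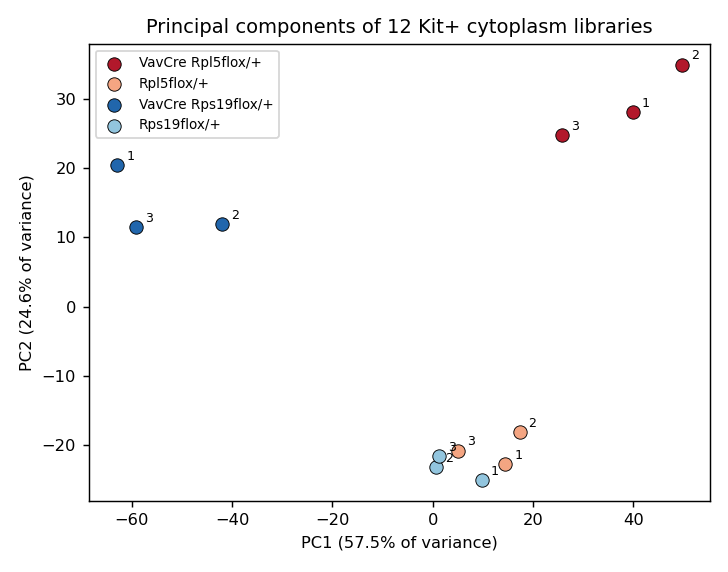
Scores of the 12 Kit+ cytoplasm libraries on the first (57.5% of the variance) and second (24.6%) principal components of the deposited log2 values, 1 point per library with its replicate number. The VavCre groups lie at opposite ends of the first component, 25.85 to 49.74 for Rpl5 and -62.92 to -41.95 for Rps19, and together on the positive side of the second.

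The targeted genes were examined first. Rpl5 had 576, 579 and 437 normalized counts in VavCre Rpl5flox/+ libraries, against 1096, 1112 and 930.3 in Rpl5flox/+ libraries. It had 491, 748 and 691 in VavCre Rps19flox/+ libraries, against 1042, 986 and 866 in Rps19flox/+ libraries. Rpl5 was thus lower in both lines with no overlap (the groups do not overlap for 51.0% of all genes tested in the Rpl5 line, 60.9% in the Rps19 line and 9.97% between the floxed groups), by -0.97 ± 0.15 (SE) on the log2 scale in the Rpl5 line and -0.59 ± 0.15 in the Rps19 line (adjusted p = 0.00029 and 0.0048 in limma), and the difference of -0.37 ± 0.21 had an adjusted p of 0.16, or 0.0159 without VavCre Rps19flox/+ replicate 1. Rps19 had 25540, 24930 and 22610 normalized counts in VavCre Rpl5flox/+ libraries, against 19230, 19810 and 16780 in Rpl5flox/+ libraries. It had 14490, 12570 and 11750 in VavCre Rps19flox/+ libraries, against 20140, 16200 and 17770 in Rps19flox/+ libraries. Rps19 therefore rose in the Rpl5 line by 0.39 ± 0.11 and fell in the Rps19 line by 0.48, with a called difference of 0.87 ± 0.15 (adjusted p = 0.00040). Without Rpl5flox/+ replicate 3 the rise in the Rpl5 line had an adjusted p of 0.0511. Rpl5 overlaps Dipk1a and the snoRNA gene Snord21, and Rps19 has 13 named pseudogenes in the annotation, so reads may be split among copies.

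A large share of the genes tested changed in each line. A gene is said to be called, to rise or to fall where limma gave an adjusted p under 0.05 over all genes tested. In the Rpl5 line 4055 genes were called (37.2% of those tested), 2267 higher (20.8%) and 1788 lower (16.4%). In the Rps19 line 5859 genes were called (53.7%), 3012 higher (27.6%) and 2847 lower (26.1%). The change itself differed between the lines for 5258 genes (48.2%), being higher with Rpl5 than with Rps19 for 2528 (23.2%) and lower for 2730 (25.0%). Between the floxed groups, Rpl5flox/+ minus Rps19flox/+, limma called 0 genes (0.0%), with 331 at an unadjusted p under 0.05 and a lowest adjusted p of 0.701. limma with voom weights on the recovered reads also called 0. A difference between the lines therefore sits on control groups that limma did not tell apart.

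The genes called in both lines divided into similar numbers that moved apart and that moved together, and which number was larger rested on single libraries. Of 2284 genes called in both lines (20.9%), 1228 (53.8% of them, 11.3% of all) changed in opposite directions and 1056 (9.68% of all) in the same direction. The opposite genes were 692 that rose with Rpl5 and fell with Rps19 (6.34%) and 536 that did the reverse (4.91%). The shared genes were 608 higher (5.57%) and 448 lower (4.11%) in both lines. Within the shared higher genes the size of the rise differed for 153 (1.4% of all), being larger with Rps19 for 104 and with Rpl5 for 49. Genes called in the Rpl5 line without a call in the Rps19 line, and with a called difference, were 575 higher (5.27%) and 549 lower (5.03%). The Rps19 line had 1371 such genes higher (12.6%) and 1037 lower (9.51%). Another 1814 genes (16.6%) were called in 1 line with no called difference, and these are not shown to be particular to a line. The remaining 3278 (30.1%) were called in neither line. Without VavCre Rpl5flox/+ replicate 2 there were 836 opposite and 867 shared genes, and without Rpl5flox/+ replicate 3 there were 835 and 924. The opposite genes were the more numerous without any 1 of the other 10 libraries, by as little as 892 to 882 without VavCre Rpl5flox/+ replicate 1. Class counts moved too: without VavCre Rpl5flox/+ replicate 2 the genes that rose with Rpl5 and fell with Rps19 were 451 and the Rpl5-line higher genes 335. The genes that fell with Rpl5 and rose with Rps19 were 353 without VavCre Rpl5flox/+ replicate 1 and 342 without Rpl5flox/+ replicate 3.

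Across the tested genes the changes in the lines had a Pearson correlation of 0.075 and a Spearman correlation of -0.032, a description over genes that share their libraries. The Rps19 changes spread more widely, with an SD over genes of 0.673 against 0.544 for Rpl5. Their tails leaned differently. Among called changes of more than 1 log2 unit, the Rpl5 line had 534 higher and 229 lower genes, and the Rps19 line 404 higher and 859 lower. The median over all tested genes was 0.03 in the Rpl5 line and 0.011 in the Rps19 line, so gene lists below can be read against a centre near 0. Counts of list members that rose or fell are to be read against the shares of all genes tested. These are 20.8% and 16.4% in the Rpl5 line and 27.6% and 26.1% in the Rps19 line.

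**Figure D2:**
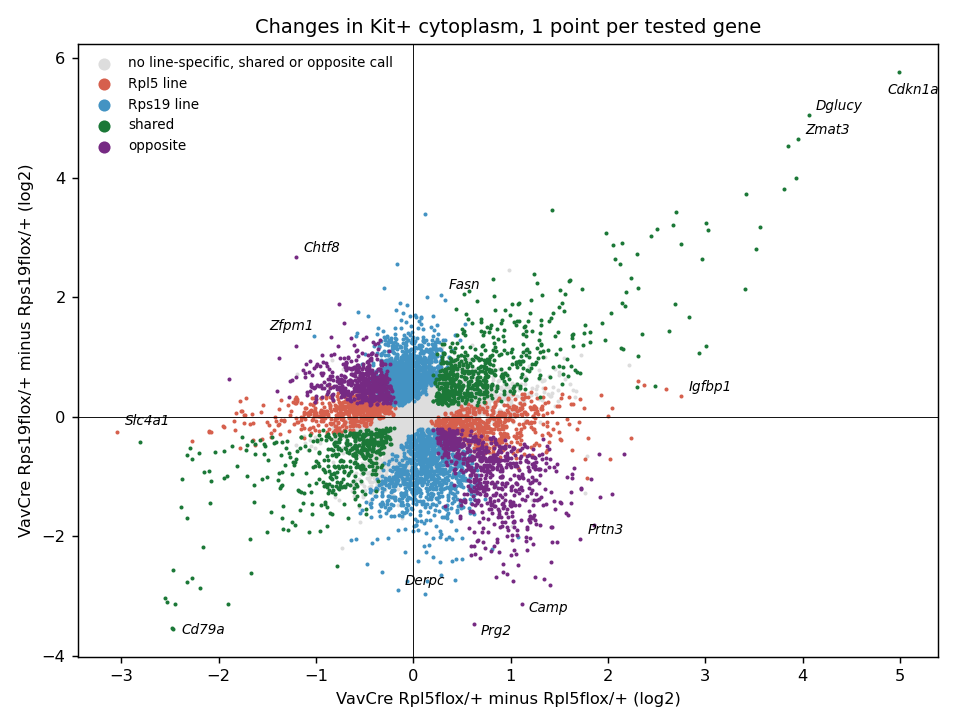
Change in the Rpl5 line (horizontal, log2) against the change in the Rps19 line (vertical, log2) for each of the 10908 tested genes in Kit+ cytoplasm, coloured by class. Cdkn1a stands at 4.99 and 5.77 in the upper right, Cd79a at -2.47 and -3.55 in the lower left, and the opposite genes fill the other quadrants, with Camp at 1.11 and -3.14 and Zfpm1 at -0.84 and 1.33.

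Targets of p53, the transcription factor that halts or kills cells under stress, rose in both lines. Of 15 cell cycle arrest targets, 12 rose and 2 fell in the Rpl5 line, and 11 rose and 1 fell in the Rps19 line, with medians of 0.82 and 1.89. Cdkn1a, which encodes the cyclin-dependent kinase inhibitor p21, had 2830, 2753 and 3315 normalized counts in VavCre Rpl5flox/+ libraries, against 81.1, 66.8 and 91.0 in Rpl5flox/+ libraries. It had 5057, 3719 and 4218 in VavCre Rps19flox/+ libraries, against 71.5, 68.7 and 54.4 in Rps19flox/+ libraries. All 6 VavCre libraries stood far above all 6 floxed ones. The rise was 4.99 ± 0.14 with Rpl5 and 5.77 ± 0.14 with Rps19, a called difference of -0.78 ± 0.19 (adjusted p = 0.0044).

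The arrest targets rose further in the Rps19 line: the difference was called lower for 8 of 15 and higher for 1, with a median of -0.67 against 0.04 over all genes. Zmat3, an RNA-binding p53 target, changed by 3.95 and 4.64 in the Rpl5 and Rps19 lines, and Psrc1, a microtubule regulator, by 2.70 and 3.42. Sesn2, a sestrin that restrains mTORC1, had 286, 302 and 417 normalized counts in VavCre Rpl5flox/+ libraries, against 162, 177 and 207 in Rpl5flox/+ libraries. It had 1083, 739.7 and 927 in VavCre Rps19flox/+ libraries, against 151, 204 and 166 in Rps19flox/+ libraries. Sesn2 rose in both lines without overlap, and the rise of 2.30 ± 0.17 with Rps19 exceeded the rise of 0.82 ± 0.17 with Rpl5 (difference -1.48 ± 0.24, adjusted p = 0.00025). Gtse1, which shuttles p53 out of the nucleus, changed by 0.70 and 1.58, also with a called difference (-0.88 ± 0.18).

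Death-related p53 targets rose in both lines, and single members differed between them. Of 16, 14 rose and 0 fell in the Rpl5 line and 12 rose and 1 fell in the Rps19 line, with medians of 1.23 and 1.31, and the difference was called higher for 5 and lower for 1, against 23.2% and 25.0% of all genes tested. Pmaip1, which encodes the BH3-only protein Noxa, had 307, 307 and 256 normalized counts in VavCre Rpl5flox/+ libraries, against 98.6, 82.1 and 78.7 in Rpl5flox/+ libraries. It had 103, 133 and 133 in VavCre Rps19flox/+ libraries, against 97.2, 68.7 and 53.5 in Rps19flox/+ libraries. The rise was larger in the Rpl5 line, at 1.59 ± 0.18 against 0.68 ± 0.18 (difference 0.91 ± 0.25, adjusted p = 0.0090). Perp, a membrane protein of p53-dependent death, rose with Rpl5 by 0.94 and its change of -0.33 with Rps19 was not called, a difference of 1.27 ± 0.32. Pidd1, which assembles a caspase-2 platform, went the other way, with a change of 0.21 that was not called in the Rpl5 line and a rise of 1.45 in the Rps19 line (difference -1.24 ± 0.21). The exonuclease gene Aen, the BH3-protein gene Bid and the death receptor gene Eda2r rose in both lines with no called difference. Eda2r had 0 to 2.16 normalized counts in the floxed libraries and had enough signal to be tested only through the VavCre ones.

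Among genes around p53 itself, Trp53 and Ppm1d differed between the lines. Of 8 feedback genes, 3 rose and 2 fell in the Rpl5 line and 6 rose and 1 fell in the Rps19 line, and the difference was called for 4, close to the 48.2% of all genes tested. Trp53, the p53 gene, had 1749, 2007 and 2126 normalized counts in VavCre Rpl5flox/+ libraries, against 1782, 1915 and 2318 in Rpl5flox/+ libraries, which overlap. It had 4749, 3976 and 4172 in VavCre Rps19flox/+ libraries, against 1885, 2439 and 2195 in Rps19flox/+ libraries, which do not. Its change was -0.03 ± 0.12 with Rpl5 and 0.98 ± 0.12 with Rps19 (difference -1.01 ± 0.17, adjusted p = 0.00031). Ppm1d, the phosphatase that switches p53 off, fell by 0.54 with Rpl5 and rose by 0.47 with Rps19. Mdm2, the ligase that degrades p53, rose by 0.76 and 0.54, and its difference of 0.22 ± 0.20 was not called. Of 15 metabolic and repair targets, 8 rose and 2 fell with Rpl5 and 7 rose and 3 fell with Rps19.

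The top of the shared rise held p53 targets and other genes. Ranked by the smaller of their changes, the leading 8 held Cdkn1a, Zmat3 and Eda2r beside Dglucy, Phlda3, Inka2, Cd80 and C2cd4a. Phlda3, an inhibitor of Akt signalling and a p53 target, changed by 3.85 and 4.52. Dglucy, a D-glutamate cyclase gene counted above among the metabolic and repair targets of p53, changed by 4.06 and 5.04. C2cd4a changed by 3.81 in each line and its difference was -0.00 ± 0.24. Cd80, a costimulatory ligand for T cells, changed by 3.03 and 3.12, with a difference of -0.10 ± 0.25. Low genes change by more on other scales, Cd80 by 4.55 and 4.96 and Eda2r by 6.59 and 6.31 on the scale of log2(normalized count + 1). In the floxed libraries Cd80 had 1.92 to 7.03 normalized counts and Eda2r 0 to 2.16. Both had enough signal to be tested only through the VavCre libraries, so a fall could not have been called for them.

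B-lymphoid genes fell in both lines. Of 15 listed genes, 13 were in the file and 12 were tested, and these 12 fell in both lines, with medians of -2.30 in the Rpl5 line and -2.81 in the Rps19 line. Cd79a, a signalling chain of the B cell receptor, had 47.0, 34.4 and 84.2 normalized counts in VavCre Rpl5flox/+ libraries, against 287, 395 and 389 in Rpl5flox/+ libraries. It had 11.6, 2.50 and 8.10 in VavCre Rps19flox/+ libraries, against 300.3, 192 and 150.1 in Rps19flox/+ libraries. No VavCre library reached a floxed one. It fell by 2.47 ± 0.29 in the Rpl5 line and fell by 3.55 ± 0.29 in the Rps19 line, a difference of 1.08 ± 0.42 with an adjusted p of 0.046. That adjusted p was above 0.05 when any 1 of 9 libraries was left out, the exceptions being VavCre Rpl5flox/+ replicate 2, VavCre Rps19flox/+ replicate 1 and Rps19flox/+ replicate 3, and it reached 0.124 without Rps19flox/+ replicate 1.

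The partner chain gene Cd79b showed the larger gap between lines, at -0.79 ± 0.18 and -2.50 ± 0.18 (difference 1.71 ± 0.25, adjusted p = 0.00012). The surrogate light chain gene Igll1 changed by -2.48 and -3.54, and Vpreb3, a pre-B receptor gene, by -2.45 and -3.13. Rag1, which cuts receptor genes for recombination, changed by -2.53 and -3.09, and Pax5, the factor that commits cells to the B lineage, by -2.19 and -2.86. All of these falls were called. The size of the differences between the lines depended on the scale. That of Cd79a was 2.05 on the scale of log2(normalized count + 1) and 2.34 with voom. On those scales the differences of Igll1 (2.32 and 2.64), Vpreb3 (2.08 and 2.70) and Rag1 (1.79 and 3.09) were called, and that of Pax5 was called on the first of them (2.05). With the replicate block in both lines the difference of Igll1 was 1.07 (adjusted p = 0.00676). The summed level of the list was 319.7 to 438.8 in VavCre Rpl5flox/+ libraries, against 1536 to 2006 in Rpl5flox/+ libraries. It was 40.27 to 69.98 in VavCre Rps19flox/+ libraries, against 781.8 to 1688 in Rps19flox/+ libraries. The floxed groups themselves were apart by a median of 0.64 for this list, although 0 members were called between them.

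Glycolysis genes were also higher in both lines. Of 17, 11 rose and 2 fell in the Rpl5 line and 15 rose and 0 fell in the Rps19 line, with medians of 0.71 and 0.52, and 9 rose in both. Aldoa, the aldolase, changed by 0.99 and 0.82, and Pgam1, a phosphoglycerate mutase, by 0.73 and 0.85, without called differences. Isoforms of phosphofructokinase, the committed step, moved apart. Pfkp had 473, 490.2 and 343 normalized counts in VavCre Rpl5flox/+ libraries, against 172, 166 and 141 in Rpl5flox/+ libraries. Pfkm had 496, 430.4 and 648 in VavCre Rpl5flox/+ libraries, against 1017, 968 and 1025 in Rpl5flox/+ libraries. In the Rpl5 line Pfkp thus rose by 1.35 ± 0.16 while Pfkm fell by 0.93 ± 0.12. In the Rps19 line Pfkm rose by 0.48 ± 0.12, and the change of Pfkp, 0.22 ± 0.16, was not called.

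**Figure D3:**
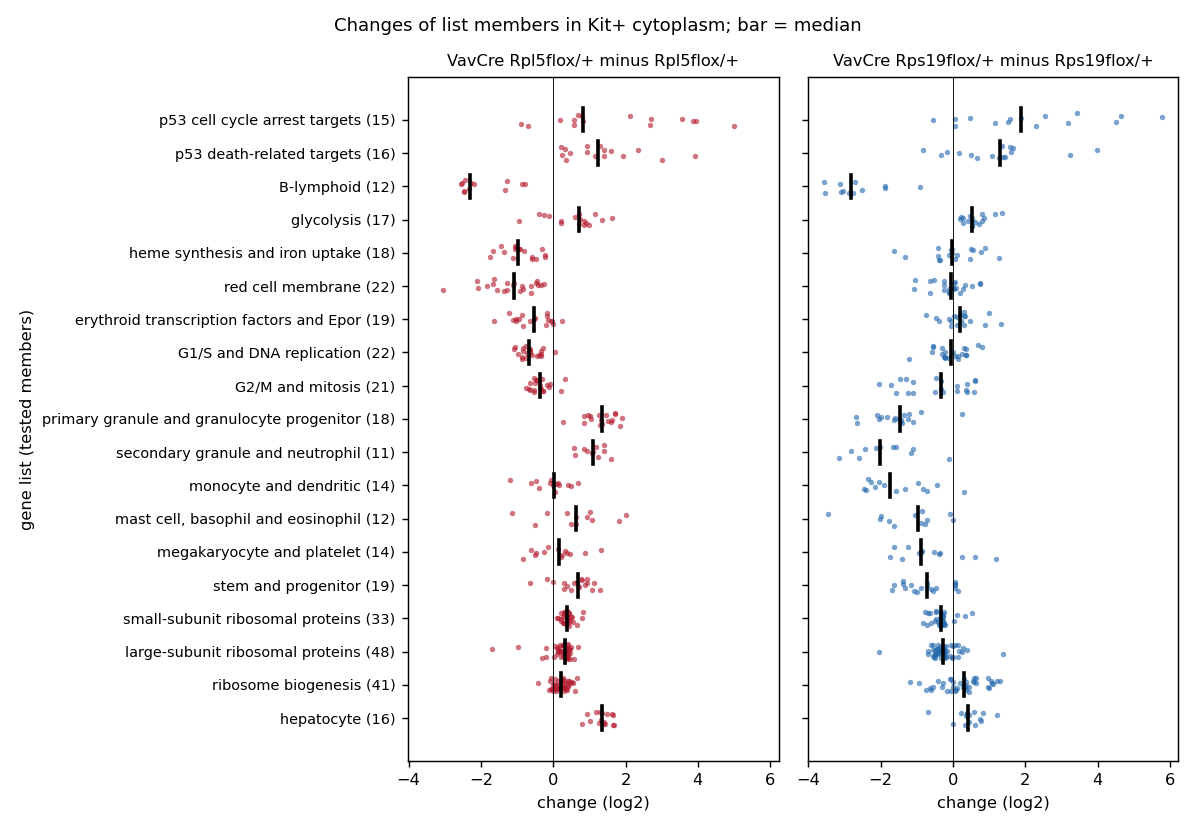
Change (log2) of every tested member of 19 gene lists in the Rpl5 line (left) and the Rps19 line (right), 1 point per gene, with the list median as a bar and the number of tested members in parentheses. The p53 and B-lymphoid lists lie on the same side in both panels, the granule, stem and ribosomal protein lists lie on opposite sides (primary granule medians 1.34 and -1.47), and the red cell membrane list lies below 0 in the Rpl5 panel (-1.10) and near 0 in the Rps19 panel (-0.05).

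Red cell genes fell in the Rpl5 line, while in the Rps19 line as many membrane and heme genes rose as fell. Of 22 red cell membrane genes, 19 fell and 0 rose with Rpl5 (median -1.10), and 4 fell and 4 rose with Rps19 (median -0.05). The difference was called lower with Rpl5 for 19 and higher for 0. Slc4a1, the anion exchanger band 3, had 788, 650.5 and 989 normalized counts in VavCre Rpl5flox/+ libraries, against 6398, 6992 and 6622 in Rpl5flox/+ libraries. It had 8778, 4505 and 5267 in VavCre Rps19flox/+ libraries, against 9376, 6515 and 5825 in Rps19flox/+ libraries. The Rps19 groups overlap and the Rpl5 groups lie far apart. Slc4a1 fell by 3.04 ± 0.22 in the Rpl5 line, and its difference between the lines was -2.78 ± 0.31 (adjusted p = 2.4e-05). The change of -0.26 ± 0.22 in the Rps19 line was called only without VavCre Rps19flox/+ replicate 1 (-0.54, adjusted p = 0.0235).

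The band 4.2 gene Epb42 and the tetraspanin gene Tspan33 followed, at -2.10 and -1.82 in the Rpl5 line beside -0.23 and 0.06 in the Rps19 line, and both differences were called (-1.87 ± 0.20 and -1.88 ± 0.22). Other membrane skeleton genes moved in opposite directions. Add2, the beta adducin, fell by 1.11 with Rpl5 and rose by 0.74 with Rps19, and Ank1, the ankyrin that ties band 3 to spectrin, fell by 0.83 and rose by 0.75. The promoter of Epb42 is shown here because the gene is among those that fell with Rpl5 and it holds a match to the GATA motif that the erythroid factor Gata1 reads. It is RefSeq sequence on GRCm38.p6, chr2:121036828-121037127, minus strand, from 250 bases before to 50 after the start of the gene, with the match in capitals.
Epb42: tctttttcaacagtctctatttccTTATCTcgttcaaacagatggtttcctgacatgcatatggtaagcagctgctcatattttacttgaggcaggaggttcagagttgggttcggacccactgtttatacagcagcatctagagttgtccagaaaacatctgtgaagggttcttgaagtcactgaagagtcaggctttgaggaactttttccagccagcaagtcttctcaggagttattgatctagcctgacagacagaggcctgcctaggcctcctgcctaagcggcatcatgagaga
The motif searched was AGATAA on both strands, so TTATCT is its reverse complement. It was found in 10 of 44 promoters of the heme, red cell membrane and erythroid transcription factor lists (22.7%), and in 6.29% of the 8788 tested genes with a promoter sequence. Among genes that fell with Rpl5 and rose with Rps19 the share was 9.60%, and among those that fell in the Rpl5 line alone it was 7.38%. It was 7.31% among genes that fell in the Rps19 line alone and 6.68% among those that rose with Rpl5 and fell with Rps19. The motif of the erythroid factor Klf1, CACACCC, was in 8.04%, 7.83%, 6.46% and 10.3% of these classes in that order, against 8.19% of all. For the E2F motif, TTCCCGC, the shares were 10.7%, 11.2%, 9.62% and 6.86%, against 8.81%. A match is a description of the letters, and binding was not measured.

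Heme synthesis and iron uptake followed the membrane genes. Of 18, 15 fell and 0 rose with Rpl5 (median -0.98), and 6 fell and 6 rose with Rps19 (median -0.03). The difference was called lower for 16 and higher for 1. Fech, ferrochelatase, which inserts iron into heme, had 1394, 1504 and 1928 normalized counts in VavCre Rpl5flox/+ libraries, against 3473, 3387 and 3448 in Rpl5flox/+ libraries. It had 7433, 6023 and 6671 in VavCre Rps19flox/+ libraries, against 3898, 3635 and 3316 in Rps19flox/+ libraries. The changes had opposite signs with no overlap in either line, -1.10 ± 0.11 and 0.89 ± 0.11 (difference -1.99 ± 0.16, adjusted p = 4.2e-06).

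Cpox, an earlier step of heme synthesis, also moved apart, at -0.59 and 0.78, as did the iron transporter gene Slc11a2 (-0.59 and 0.48). Tfrc, the transferrin receptor, had 4228, 2732 and 4019 normalized counts in VavCre Rpl5flox/+ libraries, against 8613, 6791 and 7015 in Rpl5flox/+ libraries. It had 1543, 2816 and 3335 in VavCre Rps19flox/+ libraries, against 7334, 6497 and 9169 in Rps19flox/+ libraries. It fell in both lines, by 1.04 ± 0.24 and 1.63 ± 0.24, with no called difference. Its relative Tfr2, an iron sensor, rose by 1.27 in the Rps19 line, with a difference of -1.49 ± 0.21.

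The globin genes moved with less clear separation. Hbb-bs, an adult beta globin, had 18450, 18080 and 16630 normalized counts in VavCre Rpl5flox/+ libraries, against 68060, 80980 and 54170 in Rpl5flox/+ libraries. It had 45320, 23370 and 26220 in VavCre Rps19flox/+ libraries, against 89980, 47810 and 51270 in Rps19flox/+ libraries. It fell in both lines, by 1.92 ± 0.25 and 1.00 ± 0.25, and the difference of -0.92 ± 0.35 had an adjusted p of 0.045. The call is not firm: with the replicate number as a block in the Rpl5 line the adjusted p in limma was 0.0552. That these libraries are paired is inferred from the values, in which same-numbered libraries of that line deviated together. The adjusted p was 0.0889 with no filter on low values. It was also above 0.05 when any 1 of 8 libraries was left out (0.0698 to 0.11), the exceptions being Rpl5flox/+ replicate 3, VavCre Rps19flox/+ replicates 2 and 3 and Rps19flox/+ replicate 1, and it was 0.066 with the libraries rescaled. Near-identical globin copies share reads. Of the 7 globin genes, 4 fell and 2 rose with Rpl5, one of the risers being Hba-x, the embryonic zeta chain, at 1.50 ± 0.35. In the Rps19 line 2 fell and 1 rose.

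Erythroid transcription factors divided the lines as well. Of 19 factors and Epor, 11 fell and 0 rose with Rpl5 and 1 fell and 7 rose with Rps19, with medians of -0.52 and 0.19. Zfpm1, the Gata1 cofactor Fog1, had 1059, 994 and 1644 normalized counts in VavCre Rpl5flox/+ libraries, against 1994, 1991 and 2565 in Rpl5flox/+ libraries. It had 6963, 5413 and 6145 in VavCre Rps19flox/+ libraries, against 2149, 2781 and 2421 in Rps19flox/+ libraries. The lowest VavCre Rps19flox/+ library stood above every other library, and the difference was -2.17 ± 0.24 (adjusted p = 2.2e-05). Tal1, a master factor of blood formation, fell by 0.86 with Rpl5 and rose by 0.48 with Rps19. Klf1, which switches on globin and membrane genes, fell by 1.04 with Rpl5, with a difference of -1.36 ± 0.20. Its change of 0.32 in the Rps19 line was called in limma only in 6 alternatives, among them the replicate block in both lines (adjusted p = 0.0183). Epor, the erythropoietin receptor, fell by 1.02 with Rpl5, with 0.23 not called in the Rps19 line. Nfe2, a factor of globin regulation, was not called in either line.

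Replication genes fell with Rpl5. Of 22 G1/S and replication genes, 20 fell and 0 rose with Rpl5 (median -0.66), and 7 fell and 6 rose with Rps19 (median -0.05), with the difference called lower for 15. Ccne1, the cyclin that starts S phase, had 812, 740.5 and 880.2 normalized counts in VavCre Rpl5flox/+ libraries, against 1797, 1636 and 1776 in Rpl5flox/+ libraries. It had 2645, 2179 and 2264 in VavCre Rps19flox/+ libraries, against 1769, 1829 and 1871 in Rps19flox/+ libraries. The change was -1.09 ± 0.09 in the Rpl5 line and 0.37 ± 0.09 in the Rps19 line (difference -1.45 ± 0.13, adjusted p = 5.7e-06). Of the replicative helicase, Mcm5 changed by -0.58 and 0.80 and Mcm7 by -0.83 and 0.36. Cdc6, which loads that helicase, fell by 1.06 with Rpl5 and changed by 0.05 with Rps19, not called. Slbp, which binds histone mRNA, fell in both lines, by 0.68 and 0.58, without a called difference.

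Mitosis genes were less uniform. Of 21, 11 fell and 1 rose with Rpl5, and 13 fell and 6 rose with Rps19, with medians of -0.37 and -0.34. The checkpoint kinase gene Bub1b, the mitotic kinesin gene Kif20a and the cyclin gene Ccnb1 fell in the Rpl5 line, by 0.52, 0.48 and 0.63, and rose in the Rps19 line, by 0.61, 0.62 and 0.40. Top2a, which untangles sister chromatids, had 2644, 2485 and 2792 normalized counts in VavCre Rpl5flox/+ libraries, against 3330, 3258 and 2978 in Rpl5flox/+ libraries. It had 851, 1654 and 1036 in VavCre Rps19flox/+ libraries, against 3436, 3014 and 3067 in Rps19flox/+ libraries. It fell in the Rps19 line by 1.47 ± 0.17, with a difference of 1.20 ± 0.24 (adjusted p = 0.0011), opposite in sign to that of Ccnb1 (-1.03 ± 0.14).

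The granulocyte lists had the largest median differences of the 37 lists examined, which were chosen with earlier results of these data known. The floxed groups themselves were apart by medians of 0.33 for the primary and 0.38 for the secondary granule list, with 0 members called between them. Of 18 primary granule and granulocyte progenitor genes, 17 rose and 0 fell with Rpl5 (median 1.34) and 17 fell and 0 rose with Rps19 (median -1.47), and 16 were called in opposite directions. The median difference was 2.93, against 0.04 over all genes. Prtn3, proteinase 3 of the primary granule, had 16220, 19770 and 8807 normalized counts in VavCre Rpl5flox/+ libraries, against 4313, 4324 and 4270 in Rpl5flox/+ libraries. It had 1011, 1105 and 468 in VavCre Rps19flox/+ libraries, against 3686, 3596 and 2941 in Rps19flox/+ libraries. Every VavCre Rpl5flox/+ library stood above all floxed libraries and every VavCre Rps19flox/+ library below them (difference 3.76 ± 0.41, adjusted p = 2.0e-05).

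Elane, neutrophil elastase, changed by 1.47 and -2.09, and Clec12a, an inhibitory lectin of myeloid cells, by 0.86 and -2.68. The regulators moved with them. Gfi1, a repressor needed for neutrophils, changed by 1.72 ± 0.20 and -1.21 ± 0.20, and Cebpa, which commits progenitors to granulocytes, by 1.30 ± 0.20 and -0.87 ± 0.20. The chaperone gene Calr, which is not restricted to granulocytes, rose by 0.84 with Rpl5, with a difference of 0.59 ± 0.16.

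Later neutrophil genes gave the same picture in the 11 of 16 secondary granule genes that were tested. In the Rpl5 line 9 rose and 0 fell (median 1.11), in the Rps19 line 10 fell and 0 rose (median -2.01), and 8 were called in opposite directions. S100a8, a subunit of calprotectin, had 10850, 13950 and 5902 normalized counts in VavCre Rpl5flox/+ libraries, against 3728, 4429 and 2823 in Rpl5flox/+ libraries. It had 813, 617 and 294 in VavCre Rps19flox/+ libraries, against 3978, 2766 and 2290 in Rps19flox/+ libraries. The groups do not overlap, and the difference was 3.85 ± 0.49 (adjusted p = 5.1e-05). Its partner S100a9 changed by 1.41 and -2.82, and Camp, the cathelicidin, by 1.11 ± 0.37 and -3.14 ± 0.37, with the widest difference of the neutrophil genes named here at 4.25 ± 0.52. The stefin-family genes Stfa1, Cstdc4 and Cstdc5, which belong to a cluster of near-identical copies, had differences of 3.93, 3.78 and 4.06. Some rises in the Rpl5 line lost their call without VavCre Rpl5flox/+ replicate 2, with adjusted p of 0.132 for Camp, 0.0583 for S100a9, 0.102 for Stfa1, 0.135 for Cstdc4 and 0.0528 for Cstdc5. Without VavCre Rpl5flox/+ replicate 1 it was 0.0586 for Camp, 0.0693 for Stfa1 and 0.0968 for Cstdc4. Without Rpl5flox/+ replicate 1 it was 0.081 for Camp and 0.0699 for Cstdc4, and without replicate 3 of that group 0.0991 for Camp, 0.0869 for Stfa1 and 0.118 for Cstdc4. The rises of Prtn3, Elane, Gfi1, Cebpa and S100a8 kept their call whichever library was left out. VavCre Rpl5flox/+ replicate 3 was the lowest of its group for Prtn3, S100a8 and Camp, and it still lay above the Rpl5flox/+ libraries.

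The promoters of Prtn3 and S100a8 are shown because these genes moved in opposite directions and hold matches to the core motif of PU.1, the myeloid factor that the gene Spi1 encodes. They are RefSeq sequences on GRCm38.p6, plus strand, at chr10:79879417-79879716 and chr3:90668821-90669120, from 250 bases before to 50 after the start, with the matches in capitals.
Prtn3: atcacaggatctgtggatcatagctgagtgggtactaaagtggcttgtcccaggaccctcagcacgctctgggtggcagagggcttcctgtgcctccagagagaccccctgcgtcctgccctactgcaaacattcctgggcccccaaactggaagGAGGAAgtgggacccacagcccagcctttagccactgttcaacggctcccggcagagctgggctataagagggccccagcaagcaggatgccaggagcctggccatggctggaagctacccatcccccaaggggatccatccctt
S100a8: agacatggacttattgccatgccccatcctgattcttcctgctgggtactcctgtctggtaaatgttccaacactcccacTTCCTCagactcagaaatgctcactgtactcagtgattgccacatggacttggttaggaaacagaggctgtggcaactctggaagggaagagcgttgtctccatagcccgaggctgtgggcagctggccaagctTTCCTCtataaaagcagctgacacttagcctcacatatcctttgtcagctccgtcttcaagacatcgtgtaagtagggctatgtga
The motif searched was GAGGAA on both strands, with TTCCTC as its reverse complement. It was found in 17 of 27 promoters of the granule lists (63.0%), in 36.6% of the promoters of genes that rose with Rpl5 and fell with Rps19, and in 26.4% of all tested genes with a promoter. Genes that did the reverse held it in 22.3%. Spi1 itself had 815, 1007 and 653 normalized counts in VavCre Rpl5flox/+ libraries, against 414, 403 and 426 in Rpl5flox/+ libraries. It had 126, 165 and 91.7 in VavCre Rps19flox/+ libraries, against 361, 393 and 302 in Rps19flox/+ libraries. Its changes of 0.95 ± 0.18 and -1.39 ± 0.18 were both called, with a difference of 2.34 ± 0.26 (adjusted p = 2.0e-05).

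**Figure D4:**
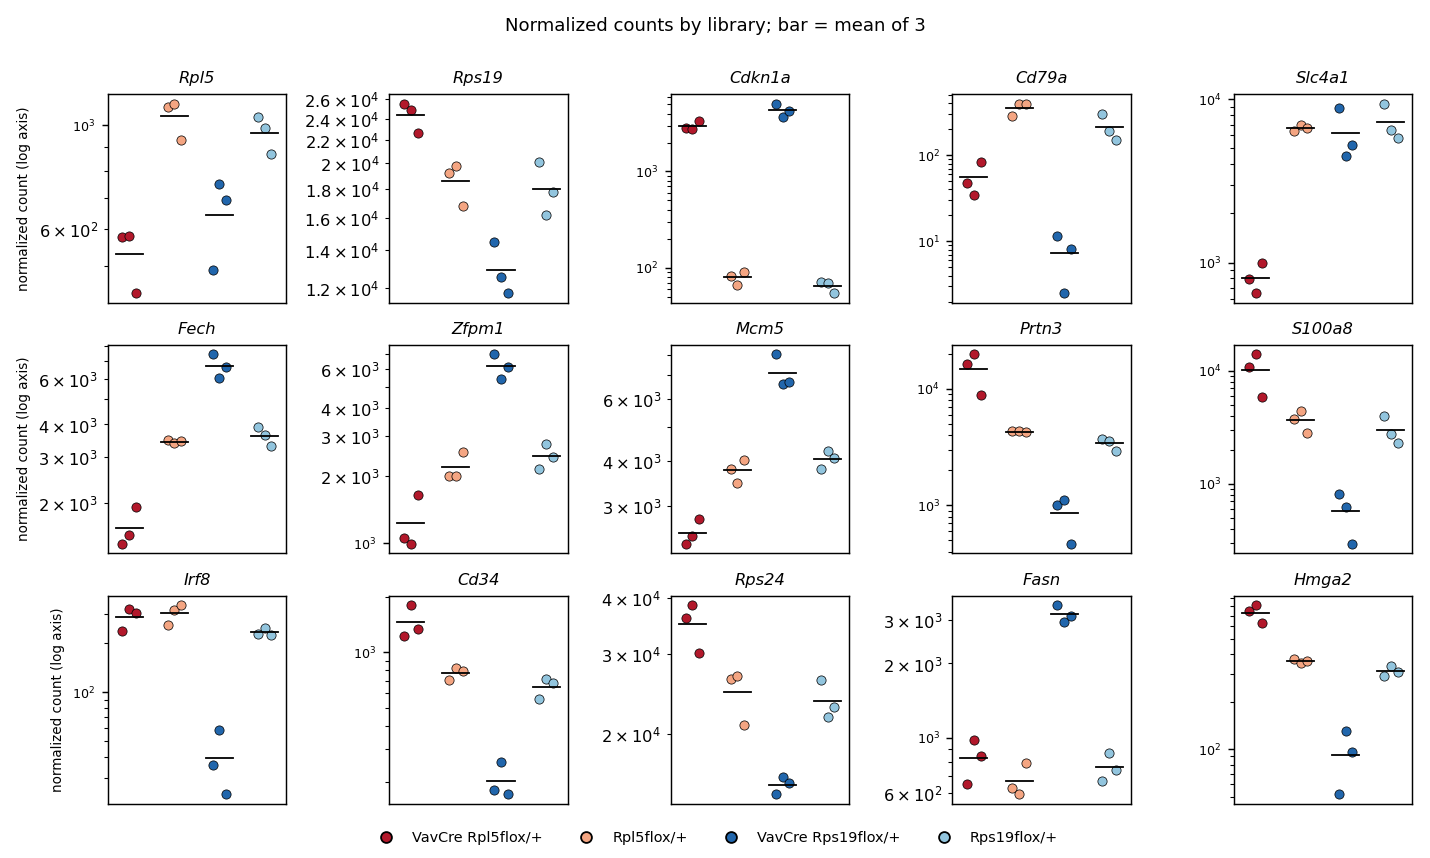
Normalized counts (log axis) of 15 genes in the 12 libraries, grouped from left to right as VavCre Rpl5flox/+, Rpl5flox/+, VavCre Rps19flox/+ and Rps19flox/+, with a bar at the mean of 3. Cdkn1a is high in both VavCre groups (2753 to 5057, against 54.4 to 91.0), Slc4a1 is low in VavCre Rpl5flox/+ (650.5 to 989), and Prtn3 and S100a8 are high in VavCre Rpl5flox/+ and low in VavCre Rps19flox/+.

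Monocyte and dendritic genes, by contrast, fell in the Rps19 line with few calls in the Rpl5 line. Of 14 tested, 12 fell and 0 rose with Rps19 (median -1.74), and 1 rose and 1 fell with Rpl5 (median 0.02), with the difference called higher for 11. Irf8, which directs progenitors to monocytes and dendritic cells, had 237, 322 and 303 normalized counts in VavCre Rpl5flox/+ libraries, against 257, 316 and 340.4 in Rpl5flox/+ libraries. It had 36.0, 59.0 and 23.7 in VavCre Rps19flox/+ libraries, against 227, 246 and 223 in Rps19flox/+ libraries. The Rpl5 groups overlap, with a change of -0.08 ± 0.20, while the Rps19 line fell by 2.26 ± 0.20 (difference 2.18 ± 0.29, adjusted p = 6.6e-05). The cytokine receptor gene Flt3 fell by 2.14 with Rps19, and its change of 0.16 with Rpl5 was not called. Zbtb46, a dendritic cell factor, went against the list, falling in the Rpl5 line by 1.19 with a difference of -1.49 ± 0.20.

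Mast cell, basophil and eosinophil genes resembled the granulocyte ones. Of 12 tested, 6 rose and 1 fell with Rpl5 and 8 fell and 0 rose with Rps19. Prg2, eosinophil major basic protein, had 647, 1120 and 768 normalized counts in VavCre Rpl5flox/+ libraries, against 509, 604 and 485 in Rpl5flox/+ libraries. It had 26.8, 36.8 and 37.0 in VavCre Rps19flox/+ libraries, against 604, 427 and 503 in Rps19flox/+ libraries. The gap was wide in the Rps19 line (-3.46 ± 0.18) and narrow in the Rpl5 line (0.62 ± 0.18), with a difference of 4.08 ± 0.26 (adjusted p = 1.7e-06). The rise in the Rpl5 line had an adjusted p of 0.092 without VavCre Rpl5flox/+ replicate 2, 0.0561 without Rpl5flox/+ replicate 1 and 0.0652 without replicate 3 of that group. Eosinophil peroxidase, Epx, and histidine decarboxylase, Hdc, changed by 1.01 and 0.95 with Rpl5 and by -1.98 and -1.76 with Rps19. With voom the fall of Epx in the Rps19 line was -3.43.

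Megakaryocyte and platelet genes fell mainly in the Rps19 line. Of 14 tested, 10 fell and 2 rose with Rps19 (median -0.87), and 3 fell and 3 rose with Rpl5 (median 0.17). Pf4, platelet factor 4, fell by 1.62 in the Rps19 line, with a difference of 1.13 ± 0.23. A smaller fall of Pf4 was also called in the Rpl5 line. That call was lost in limma when any 1 of 5 libraries of that line was left out (adjusted p up to 0.128). Fli1, a factor of megakaryocyte genes, moved apart at 0.87 and -1.40. Gp5, a platelet glycoprotein, rose in both lines, by 1.32 and 1.19.

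Stem and progenitor genes were higher with Rpl5 and lower with Rps19. Of 19 tested, 13 rose and 1 fell with Rpl5 (median 0.69), 14 fell and 0 rose with Rps19 (median -0.72), and 10 were called in opposite directions. Cd34, a surface marker of progenitors, had 1225, 1800 and 1341 normalized counts in VavCre Rpl5flox/+ libraries, against 712, 824 and 789 in Rpl5flox/+ libraries. It had 181, 256 and 171 in VavCre Rps19flox/+ libraries, against 558, 719 and 678 in Rps19flox/+ libraries. The changes of 0.88 ± 0.16 and -1.63 ± 0.16 leave no overlap (difference 2.51 ± 0.23, adjusted p = 7.4e-06). Cd48 changed by 1.30 and -0.98, Hlf, a stem cell factor, by 1.08 and -0.89, and Runx1, a factor required to form blood stem cells, by 0.49 and -0.46. Kit (-0.16 and 0.07) was not called in either line.

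Genes of the fetal programme that the RNA-binding protein Lin28b maintains were mixed. Of 10 tested, 6 rose and 0 fell with Rpl5, and 3 rose and 5 fell with Rps19. Hmga2, a chromatin protein of fetal stem cells, had 744, 818 and 630.5 normalized counts in VavCre Rpl5flox/+ libraries, against 373, 352 and 360.4 in Rpl5flox/+ libraries. It had 51.8, 129.5 and 96.3 in VavCre Rps19flox/+ libraries, against 292, 334 and 308 in Rps19flox/+ libraries. The difference was 2.65 ± 0.29 (adjusted p = 2.2e-05), with no overlap in either line. Lin28b fell with Rps19 by 1.12, with a difference of 1.41 ± 0.28. Igf2, a fetal growth factor, rose in both lines, by 1.29 and 1.28, as did Igf2bp1, which binds its mRNA, by 0.41 and 0.64.

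Ribosomal protein mRNAs also moved apart, by smaller amounts. Of 33 small-subunit genes, 25 rose and 0 fell with Rpl5 (median 0.38) and 26 fell and 2 rose with Rps19 (median -0.32), and 21 were called in opposite directions. Of 48 large-subunit genes, 31 rose and 3 fell with Rpl5 (median 0.33) and 27 fell and 4 rose with Rps19 (median -0.26), and 22 were opposite. The direction thus did not follow the subunit whose gene was deleted. Rps24, a small-subunit gene, had 36140, 38600 and 30230 normalized counts in VavCre Rpl5flox/+ libraries, against 26470, 26860 and 20930 in Rpl5flox/+ libraries. It had 14700, 16070 and 15540 in VavCre Rps19flox/+ libraries, against 26370, 21840 and 22940 in Rps19flox/+ libraries. The changes of 0.50 ± 0.12 and -0.62 ± 0.12 were both called (difference 1.12 ± 0.17, adjusted p = 0.00014).

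Rpl38, a large-subunit gene, moved likewise, by 0.68 and -0.54, and so did Rps12 (0.54 and -0.70). Some members did not follow. Rps2 rose in both lines, by 0.34 and 0.33, as did Rplp0, of the ribosomal stalk, by 0.43 and 0.39. Rpl10 had 2411, 3675 and 3230 normalized counts in VavCre Rpl5flox/+ libraries, against 3441, 3306 and 3728 in Rpl5flox/+ libraries, which overlap. It had 8703, 8125 and 7974 in VavCre Rps19flox/+ libraries, against 2661, 3419 and 3418 in Rps19flox/+ libraries, a rise of 1.39 ± 0.13 (difference -1.58 ± 0.19, adjusted p = 3.4e-05). Many of these genes have pseudogenes, 23 for Rps12 and 12 for Rps2 by name, so their counts are uncertain where reads were shared. Of 21 translation factors and other mRNAs with a terminal oligopyrimidine tract, 7 rose and 0 fell with Rpl5, and 4 rose and 10 fell with Rps19.

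Ribosome biogenesis genes rose more often than they fell in each line. Of 41 ribosome biogenesis genes, 22 rose and 7 fell with Rps19 (27.6% and 26.1% of all genes tested), with a median of 0.31. With Rpl5 13 rose and 1 fell (20.8% and 16.4% of all), with a median of 0.23. The difference was called lower with Rpl5 for 15 and higher for 8, against 25.0% and 23.2% of all genes tested. Bop1, which processes large-subunit rRNA, changed by 0.19, not called, in the Rpl5 line and by 1.29 in the Rps19 line (difference -1.10 ± 0.13). Tcof1, a factor for rRNA transcription, changed by 0.09, not called, and 1.10. Mybbp1a, a nucleolar protein, rose in both, by 0.30 and 1.21, with a called difference of -0.92 ± 0.11.

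Fasn, fatty acid synthase, had 653, 977 and 845 normalized counts in VavCre Rpl5flox/+ libraries, against 624, 590.4 and 794 in Rpl5flox/+ libraries. It had 3449, 2938 and 3115 in VavCre Rps19flox/+ libraries, against 667, 872 and 741 in Rps19flox/+ libraries. Its rise of 2.04 ± 0.15 was called in the Rps19 line, and the difference was -1.75 ± 0.21 (adjusted p = 3.3e-05). The change of 0.29 ± 0.15 with Rpl5 was called only without VavCre Rpl5flox/+ replicate 1 (adjusted p = 0.033). Cad, which starts pyrimidine synthesis, rose by 2.00 with Rps19 and changed by 0.15 with Rpl5, not called. The folate carrier gene Slc19a1 (1.48), the pyruvate carboxylase gene Pcx (1.73), the diphthamide enzyme gene Dph1 (1.87) and the rRNA processing gene Rcl1 (1.78) also rose with Rps19, with called differences of -1.84, -1.83, -1.93 and -1.95 in that order. Of 22 cholesterol synthesis genes, 10 rose and 2 fell with Rps19, against 27.6% and 26.1% of all genes tested. With Rpl5 3 rose and 4 fell, against 20.8% and 16.4%.

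Genes that respond to stalled ribosomes and amino acid shortage moved in both directions in each line. Of 19 ribosome rescue genes, 6 rose and 4 fell with Rps19 and 1 rose and 3 fell with Rpl5, and the difference was called for 7, against 48.2% of all genes tested. Gcn1, which senses collided ribosomes, rose by 1.34 with Rps19 and changed by -0.00 with Rpl5, not called. Zfp598, the ligase that marks such collisions, rose by 1.21 with Rps19, with a difference of -1.50 ± 0.17. Of 16 tested genes of the Atf4 stress response, 5 rose and 3 fell with Rpl5 and 8 rose and 4 fell with Rps19. The difference was called higher for 4 and lower for 6. This list includes Atf4 itself and Sesn2, which is also counted among the p53 targets above. Asns, asparagine synthetase, fell by 0.55 with Rpl5 and rose by 0.63 with Rps19, whereas the related factor gene Atf5 rose by 0.94 and fell by 0.49. Atf4 itself fell by 0.61 with Rps19, with a difference of 0.86 ± 0.13.

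Genes at the head of the Rpl5-line rise included Igfbp1, P4ha2, Lat and Nefh. Lat, an adaptor of T cell receptor, mast cell and platelet signalling, had 295, 262 and 243 normalized counts in VavCre Rpl5flox/+ libraries, against 40.1, 42.6 and 54.9 in Rpl5flox/+ libraries. It had 16.9, 29.3 and 24.6 in VavCre Rps19flox/+ libraries, against 31.7, 34.5 and 33.3 in Rps19flox/+ libraries. It rose by 2.23 ± 0.17 with Rpl5, with a difference of 2.59 ± 0.24 (adjusted p = 7.5e-06). In the Rps19 line limma called Lat lower only with the libraries rescaled (-0.41, adjusted p = 0.049) and without VavCre Rps19flox/+ replicate 2 (-0.47, adjusted p = 0.0421). P4ha2, a collagen prolyl hydroxylase, rose by 2.37 with Rpl5, and Igfbp1, a secreted binder of insulin-like growth factors that hepatocytes make, by 2.75. The change of P4ha2 with Rps19, 0.53, was called only in 3 alternatives. The place of Lat and P4ha2 in this class is thus not firm. Ifitm3, an interferon-induced membrane protein, rose by 2.17 with Rpl5, with a difference of 2.79 ± 0.33. Of 9 tested interferon genes, 5 rose and 0 fell with Rpl5, and 2 rose and 2 fell with Rps19.

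Markers of liver parenchyma were higher in VavCre Rpl5flox/+ libraries. Of 16 hepatocyte genes, 15 rose and 0 fell with Rpl5 (median 1.36) and 2 rose and 1 fell with Rps19 (median 0.41). The difference between the lines was called for 2 of the 16, against 48.2% of all genes tested, and 11 were called in 1 line with no called difference, so the rise is not shown to be particular to the Rpl5 line. Their summed level was 25700 to 46190 normalized counts in VavCre Rpl5flox/+ libraries, against 7417 to 21000 in Rpl5flox/+ libraries. It was 9321 to 13310 in VavCre Rps19flox/+ libraries, against 4884 to 11170 in Rps19flox/+ libraries. Fgb, a fibrinogen chain, rose by 1.64 with Rpl5, and its 0.44 with Rps19 was not called. Its difference of 1.19 was called only in some alternatives, among them the replicate block in the Rpl5 line (adjusted p = 0.0266). The part of hepatocyte RNA in the rise of Igfbp1 or of any other gene was not tested.

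Markers of other neighbouring cells were counted too. Of 12 tested macrophage genes, 2 rose and 1 fell with Rpl5 and 1 rose and 1 fell with Rps19, below the shares of all genes tested. Their summed level was 1249 to 1728 in VavCre Rpl5flox/+ libraries, against 971.7 to 1476 in Rpl5flox/+ libraries. It was 1291 to 1370 in VavCre Rps19flox/+ libraries, against 1040 to 1246 in Rps19flox/+ libraries. Of 11 tested endothelial and stromal genes, 1 rose and 0 fell with Rpl5 and 1 rose and 1 fell with Rps19. All 5 tested class II antigen presentation genes fell with Rps19 (median -1.37) and 2 with Rpl5. All 3 tested T and NK genes fell with Rps19 (median -1.11) and 0 were called with Rpl5.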

How the data were processed

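Poly(A) RNA of Kit+ cytoplasm was sequenced in 12 libraries of 4 genotypes, as 100 bp reads per the labels' protocols. The deposited log2 values follow a variance-stabilising transformation by the authors, read from the values themselves. Aligner and counting method: not given in the sources used here. The build is mm10, per the submitters' processing notes. Inverting the transformation gave normalized counts, of which 100% came out as whole reads (relative tolerance 1e-05). Near 0 this scale understates changes. Positions are from GRCm38.p6, in which 13226 of the 13449 symbols were found.

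The 10908 genes averaging 10 or more normalized counts across the 12 libraries were tested in limma 3.58.1 under R 4.3.3 (lmFit, then eBayes with trend). Tests were two-sided at 8 residual degrees of freedom, and p-values were adjusted by Benjamini-Hochberg to a threshold of 0.05. The 4 genotypes shared 1 fit, and errors given after ± are standard errors. Exact permutation of 3 against 3 libraries cannot give a p under 0.1, so none is given. In data simulated from these libraries, a difference between the lines of 0.5, 1 or 2 was recovered for 11.9%, 56.7% and 84.8% of changed genes. Only 67, 67 and 66 of the 10908 genes tested carried these changes, whereas 48.2% were called in the real data. The adjusted threshold depends on that share, so the simulation does not give the recovery of the fits reported here.

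Members and the 37 gene lists were chosen with earlier results of these data known. Named genes were the targeted genes, Cdkn1a, the 8 with the largest difference in each direction and in each class (shared genes being ranked by the smaller of their changes) with a group mean of at least 100, and of each list up to 6 members with the smallest adjusted p and up to 3 with the smallest absolute difference. The text gives a subset of these. Rpl5-line libraries of the same replicate number deviated together (correlations of 0.344, 0.335 and 0.424), and Rps19-line ones did not (-0.018, -0.045 and 0). Replicates of 1 group differed by a chi-square of at least 22.28 per degree of freedom, above sampling noise. Alternatives were another log scale, other filters, rescaled libraries, a replicate block, each library left out in turn and, chosen after seeing the data, voom on the recovered reads and a block in the Rpl5 line only.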

Additional observations from a re-analysis of the deposited data

Results flagged for a closer look

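The genes below changed in opposite directions in the lines, each change being called on its own and the difference between them tested in the same limma fit. Among granulocyte and eosinophil genes the difference, Rpl5 line minus Rps19 line, was 3.76 for Prtn3, 3.85 for S100a8, 4.22 for S100a9, 4.25 for Camp and 4.08 for Prg2. It was 3.93 for Stfa1, 3.78 for Cstdc4 and 4.06 for Cstdc5, copies of 1 gene family whose reads may be shared.

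In the other direction the difference was -2.17 for Zfpm1, the erythroid cofactor, and -3.87 for Chtf8, part of a clamp loader for sister chromatid cohesion. Chtf8 is annotated with the same start and end as Derpc, which fell in the Rps19 line. How reads were assigned between them was not tested, and their summed counts are given further on. The difference was -2.64 for Ankrd52, a phosphatase regulatory subunit, -2.53 for Fbxo10, a ubiquitin ligase adaptor, and -2.39 for Wnk4, a kinase of ion transport. It was -2.36 for Abcg4, a sterol transporter of progenitors, -2.27 for Tgm2, a transglutaminase, and -2.00 for Cercam. The change of Ankrd52 in the Rpl5 line had an adjusted p of 0.128 without VavCre Rpl5flox/+ replicate 1 and 0.12 without Rpl5flox/+ replicate 3, and the calls of the neutrophil genes and Prg2 that rest on single libraries are in the report. Tgm2 had 377, 359 and 493 normalized counts in VavCre Rpl5flox/+ libraries, against 619.6, 702 and 703 in Rpl5flox/+ libraries, and 2729, 2044 and 2134 in VavCre Rps19flox/+ libraries, against 757, 788 and 746 in Rps19flox/+ libraries.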

How the results depend on the processing

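The counts of calls stayed within 1.5 times of those reported under every alternative run except when single libraries were left out, and these left-out values are in the report. Leaving out each of the 12 libraries gave 4494 to 5453 genes with a called difference, 2893 to 4721 called in the Rpl5 line, 4806 to 5883 in the Rps19 line and 0 between the floxed groups. The classes ranged from 460 to 676 (shared higher), 331 to 538 (shared lower), 451 to 743 (higher with Rpl5 and lower with Rps19), 342 to 608 (the reverse), 335 to 643 and 432 to 683 (Rpl5 line higher and lower), and 1104 to 1453 and 777 to 1276 (Rps19 line higher and lower). With the replicate number as a block, 5388 genes had a called difference, 4161 were called in the Rpl5 line and 5974 in the Rps19 line. Same-numbered libraries deviated together in the Rpl5 line and not in the Rps19 line, and their pairing is inferred from that alone. With the block in the Rpl5 line only the difference was called for 5319. Rescaling the libraries moved the opposite classes to 821 (higher with Rpl5) and 424 (lower). For the genes examined singly, 6997 of the values under alternatives kept direction and side of the threshold, 71 lost their call, 51 gained one, and 0 called values turned direction. The planned edgeR and DESeq2 fits were not run, because the deposited unit is log2, and voom on the recovered reads took their place with 5171 called differences. In simulation, a 0.5 change was recovered for 32.8% of 67 changed genes in the Rpl5 line, and a 0.5 difference between the lines for 11.9% of 67. With so few changed genes, these shares are not the recovery of the fits reported here.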

Other observations

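Nuclear-encoded genes of oxidative phosphorylation also separated the lines, whereas few mitochondrially encoded genes were called. Of 21 nuclear-encoded genes of oxidative phosphorylation, 9 rose and 0 fell with Rpl5 and 3 rose and 8 fell with Rps19, with medians of 0.23 and -0.19, and the difference was called higher for 13 and lower for 3. Of 13 mitochondrially encoded genes, 2 rose and 0 fell with Rpl5 and 0 rose and 1 fell with Rps19. Their difference was called higher for 1 and lower for 0, against 48.2% called of all genes tested. Of 25 proteasome subunit genes, 4 rose and 2 fell with Rpl5, against 20.8% and 16.4% of all genes tested. With Rps19 10 rose and 1 fell, against 27.6% and 26.1%. Of the 38 aminoacyl-tRNA synthetase genes listed, 4 were in the file under the names searched, and 1 rose and 1 fell with Rpl5 while 3 rose and 0 fell with Rps19. Wars1, the tryptophan enzyme, rose by 0.89 with Rps19, with a difference of -0.90 ± 0.13.

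Of 16 immediate early and heat shock genes, 1 rose and 3 fell with Rpl5 and 2 rose and 7 fell with Rps19. Fos, a growth-signal gene, had 267, 295 and 365 normalized counts in VavCre Rpl5flox/+ libraries, against 157, 172 and 252 in Rpl5flox/+ libraries, and 45.1, 69.9 and 89.1 in VavCre Rps19flox/+ libraries, against 146, 222 and 180.5 in Rps19flox/+ libraries. Its difference was 1.93 ± 0.31 (adjusted p = 0.00026). Its change of 0.65 in the Rpl5 line was called with all libraries and reached an adjusted p of 0.131 without Rpl5flox/+ replicate 1, 0.114 without VavCre Rpl5flox/+ replicate 3, 0.0968 without Rpl5flox/+ replicate 2 and 0.0689 without VavCre Rpl5flox/+ replicate 2. Hsp90aa1, a chaperone, fell by 1.37 ± 0.29 with Rps19, with 2561, 7645 and 3675 in VavCre Rps19flox/+ libraries, against 12030, 9620 and 10800 in Rps19flox/+ libraries.

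Chtf8 and Derpc are annotated with the same start and end, and in the Rps19 line they moved against each other. Chtf8 had 140.4, 213 and 306 normalized counts in VavCre Rpl5flox/+ libraries, against 419, 531 and 570.2 in Rpl5flox/+ libraries. It had 3542, 2781 and 2779 in VavCre Rps19flox/+ libraries, against 279.7, 777 and 447 in Rps19flox/+ libraries. Derpc had 1698, 1275 and 1670 in VavCre Rpl5flox/+ libraries, against 1648, 1626 and 1888 in Rpl5flox/+ libraries. It had 225, 183 and 225 in VavCre Rps19flox/+ libraries, against 1743, 1488 and 1790 in Rps19flox/+ libraries. Their sum ran from 2964 to 3767 in VavCre Rps19flox/+ libraries, against 2023 to 2265 in Rps19flox/+ libraries, and from 1488 to 1976 in VavCre Rpl5flox/+ libraries, against 2067 to 2458 in Rpl5flox/+ libraries. How reads were assigned between these genes was not tested.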
